A study of Saccharomyces cerevisiae with 83 samples.

Results

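The ubiquitin-specific proteases of budding yeast are the enzymes that cut ubiquitin off proteins and ubiquitin chains, and 10 of their genes (UBP1, UBP2, UBP3, UBP6, UBP8, UBP9, UBP12, UBP13, UBP14 and UBP15) were followed here as plasmid-borne extra copies in competing yeast pools. They were taken from the count tables by systematic name. The set and the pair UBP13 and UBP9 were chosen by an earlier look at the barcode changes from generation 0 to 5 or 10. Those same changes are therefore given as a description with no p. A change marked as called below, and how often the call held under other settings, is likewise description and no evidence. Of the 10 genes, 8 had a row in both tables of 4871 gene entries. UBP2 (YOR124C) and UBP14 (YBR058C) had no row in either table and could not be analysed. UBP15 (YMR304W), a protease that acts on cell-cycle and peroxisomal proteins, had 1 count in the 32 libraries of batch 1 and 8 counts in the 51 libraries of batch 2, never more than 2 in a library, and it was not tested. The other 7 passed the filter on low counts in both batches.

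Ubiquitin is attached to proteins by a chain of activating, conjugating and ligating enzymes, and deubiquitinases reverse that step. Each ubiquitin-specific protease has its own places of work: Ubp6 sits on the proteasome and recovers ubiquitin from proteins about to be degraded, Ubp8 belongs to the SAGA complex and removes ubiquitin from histone H2B, Ubp3 works with its cofactor Bre5 on transport and ribosomal substrates, and Ubp12 acts on mitochondrial fusion and signalling proteins. Ubp9 and Ubp13 are paralogs that came from the duplication of the whole yeast genome.

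All strains were haploids of the YPS1009 background, transformed with a pool of centromeric plasmids that each carry 1 gene and a barcode. The series sets euploid strains, and strains with 1 added chromosome (IV, VII, XII or XV), against each other with and without the RNA-binding protein gene SSD1. The labels name the strains AGY1611 to AGY1614 and AGY1859 to AGY1863 and give neither karyotype nor SSD1 state for those numbers, so each is given by number and each is 1 strain. Cells grew at 30 °C in synthetic medium without histidine, with nourseothricin to keep the added chromosomes and G418 to keep the plasmids. Batch 1 had 4 cultures (A to D) of AGY1612, AGY1613, AGY1614 and AGY1611 at generations 10 and 0. Batch 2 had 3 cultures (1 to 3) of each strain. AGY1613, AGY1860 and AGY1611 were sampled at generations 0, 5 and 10. AGY1861 had generations 5 and 0, and the remaining AGY1859, AGY1862 and AGY1863 had 10 and 0. AGY1611, the strain present in both batches with the lowest number, served as the reference for strain differences by convention only.

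The 83 libraries came from 37 cultures. Totals per library were 457053 to 2993246 counts at generation 10 and 3237303 to 8351355 at generation 0 of batch 1. The libraries of batch 2 had 1298424 to 7559499 counts at generation 0, 452054 to 5409233 at generation 5 and 561486 to 3506174 at generation 10. Levels are given as CPM, barcode counts scaled to the TMM-adjusted library total, a level that does not scale with gene length. Share below means this TMM-scaled level, which can move differently from the plain fraction of a library's counts. The scaling called library size alone follows that fraction. UBP3 in AGY1614 of batch 1, for example, changed by 0.49 with TMM and by -0.04 with library size alone. The median log2 change over all names tested lay between 0.00 and 0.09 in every comparison of generations. A gene is described as called where edgeR's quasi-likelihood test gave a Benjamini-Hochberg adjusted p under 0.05 over all names tested, 4615 in batch 1 and 4579 in batch 2.

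The cultures were not all separate samples of the plasmid pool. Per the series text, the 4 cultures of a batch 1 strain came from 2 transformations. Across 4547 genes, log2 changes correlated with a mean Spearman rho of 0.936 between A and B or C and D of a strain (8 pairs), against 0.486 for A or B with C or D (16 pairs). In AGY1613 and AGY1611, A and B of batch 1 with replicate 2 of batch 2, and C and D with replicate 3, had a mean of 0.941 (8 pairs). The same strains had 0.455 for replicate 1 with the batch 1 cultures (8 pairs). Genes, over which these values run, are no independent replicates. The p-values of batch 1 treat 4 cultures as separate and measure a spread that is partly technical, and the batches do not check each other in these strains.

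At generation 0 the members ranged widely in plasmid share. UBP6 had the highest level, a mean of 479 CPM in batch 1 and 433 CPM in batch 2, and UBP13 followed with 347 and 342 CPM. UBP8 had 224 and 217 CPM and UBP3 180.2 and 176 CPM, near the medians of 185 and 191 CPM over all names tested. UBP9 (48.6 and 46.0 CPM), UBP12 (23.7 and 22.4 CPM) and UBP1 (6.07 and 6.58 CPM) lay lower, and UBP1 ranked 4503 of 4615 in batch 1. The counts behind these levels at generation 0 were 495 to 3042 per library for UBP13, 51 to 458 for UBP9, 31 to 236 for UBP12 and 10 to 69 for UBP1. The fitted SEs in batch 2 were larger for UBP12 than for UBP1 in AGY1611 (1.47 and 1.32 at generation 10), so the counts alone do not set the order of precision. Since PCR reads carry no molecular identifiers, counting intervals and floors cover counting error only.

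UBP13 plasmids (YBL067C, chromosome II, a gene of 2244 bp in the R64 annotation) gained share in nearly every culture. At generation 10 of batch 1, UBP13 had 1012, 995, 767 and 700.0 CPM in cultures A to D of AGY1612, 769, 782, 648 and 614 CPM in AGY1613, 692, 661, 646 and 560.3 CPM in AGY1614, and 519, 468, 334 and 389.8 CPM in AGY1611, against 326 to 408 CPM in the 16 libraries of generation 0. All 12 cultures of the first 3 strains lay above every generation 0 library, and AGY1611 overlapped with them. In batch 2 the 3 cultures had 877, 791 and 595 CPM in AGY1613, 1184, 2056 and 1236 CPM in AGY1859, 1242, 685 and 945 CPM in AGY1860, 494, 592 and 766 CPM in AGY1862, 547, 725 and 728 CPM in AGY1863, and 639, 483 and 379 CPM in AGY1611, against 326 to 368 CPM in the 21 libraries of generation 0. No generation 10 library of batch 2 lay within the generation 0 range, and AGY1859 culture 2 was the highest library of the series for this gene. The share was higher at generation 10 than in the generation 0 library of the same replicate label in 15 of 16 cultures of batch 1 and 18 of 18 of batch 2. The fitted log2 changes were 1.33 ± 0.13 (SE) in AGY1612, 1.06 ± 0.13 in AGY1613, 0.84 ± 0.13 in AGY1614 and 0.29 ± 0.13 in AGY1611 in batch 1. In batch 2 they were 1.16 ± 0.20 in AGY1613, 2.11 ± 0.20 in AGY1859, 1.42 ± 0.20 in AGY1860, 0.87 ± 0.20 in AGY1862, 0.98 ± 0.20 in AGY1863 and 0.58 ± 0.20 in AGY1611. Calls were made in 3 of 4 strains of batch 1 (not AGY1611) and 6 of 6 of batch 2, all higher. In AGY1611 of batch 2 the call was lost under 3 of 7 other settings (DESeq2 size factors, library size alone, and a fit of only the libraries compared), which leaves 5 of 6 strains called. It was also lost in 5 of the 51 fits that each left out 1 library, all without a library of that strain (any at generation 0, or replicate 1 or 2 at generation 10). With library size alone as the scaling the value of AGY1614 was 0.32, still called. UBP13 ranked 49 of 4579 names from the top in AGY1859 and 908 of 4579 in AGY1611 of batch 2.

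**Figure D1:**
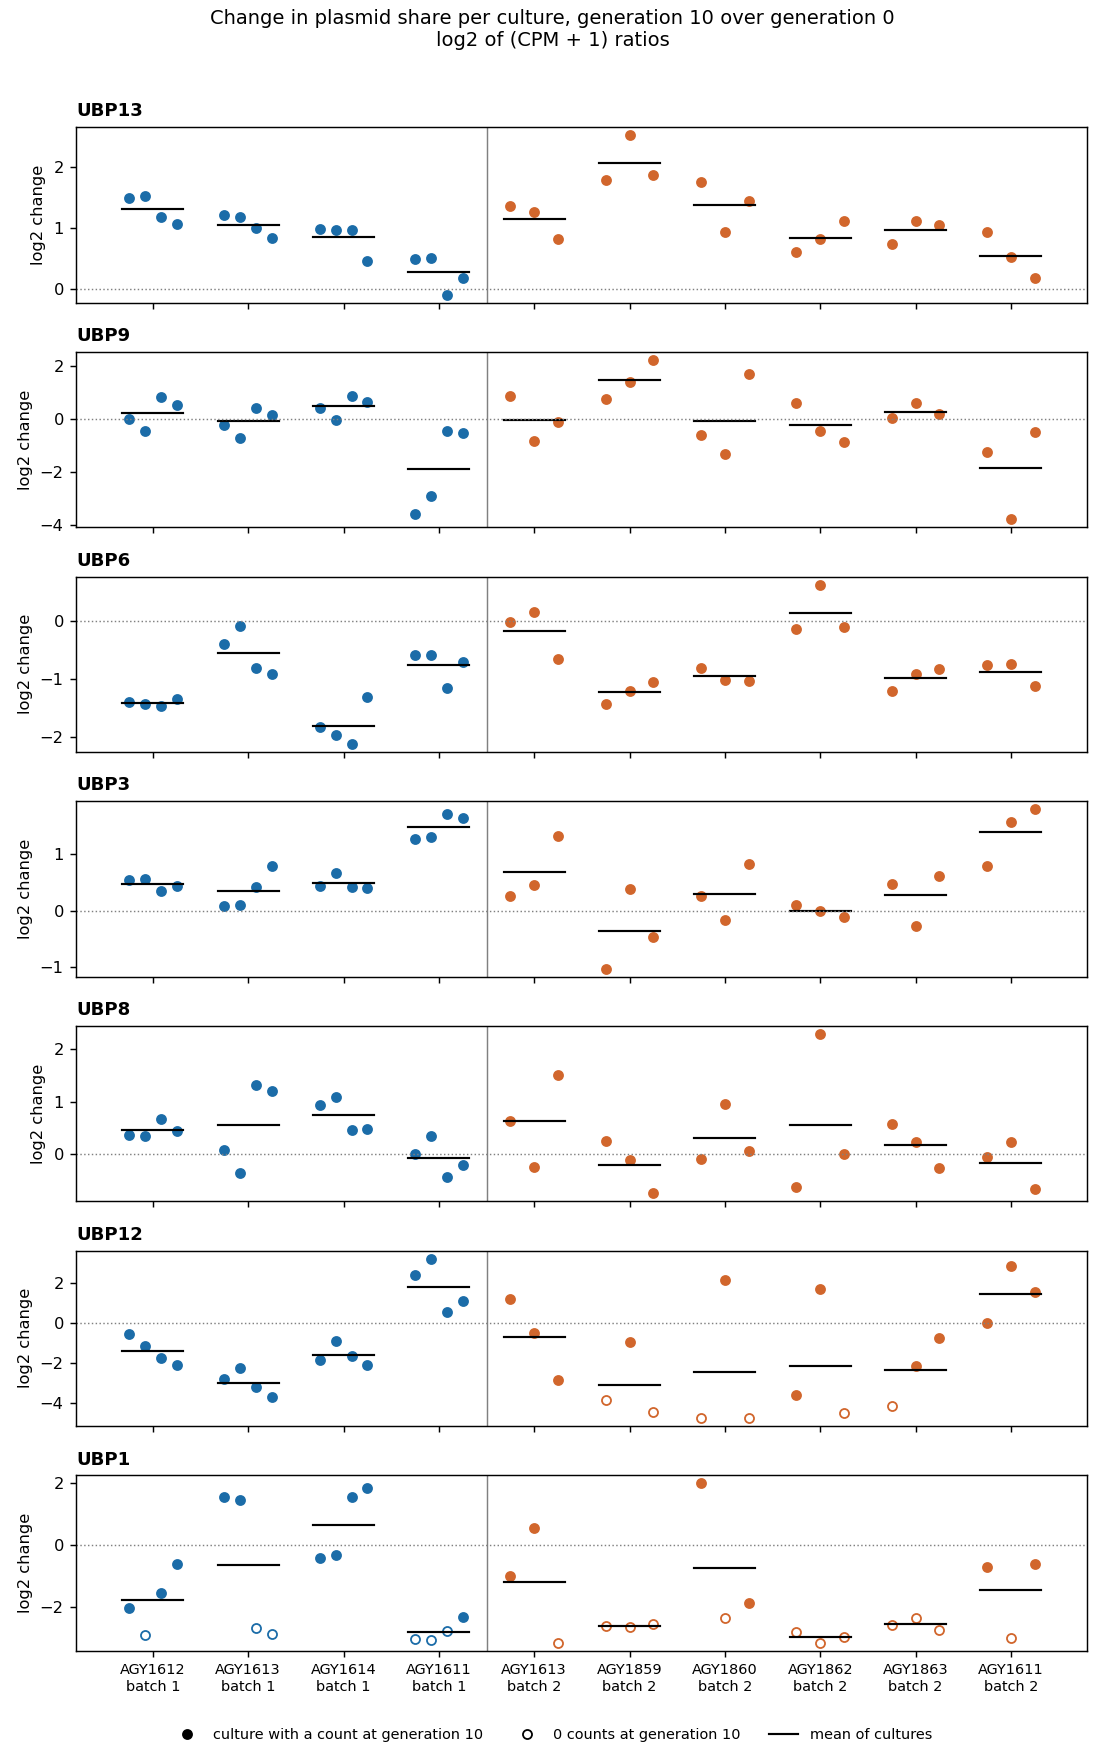
Each point is 1 culture, at the log2 ratio of CPM plus 1 between generation 10 and generation 0 (vertical axis), by strain and batch (horizontal axis, batch 1 blue, batch 2 orange), with a bar at the mean. UBP13 lies above 0 in all but 1 culture, UBP6 lies below 0 in 16 of 16 cultures of batch 1, and UBP12 and UBP1 scatter by several log2 units between cultures of 1 strain, with open points where no count was left.

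The paralog UBP9 (YER098W, chromosome V, 2265 bp) gained share in fewer cultures. UBP9 lay above every generation 0 library in all AGY1859 cultures of batch 2 and fell in AGY1611. In batch 1 it had 47.7, 34.6, 80.6 and 66.2 CPM at generation 10 in cultures A to D of AGY1612, 34.8, 28.3, 64.1 and 53.2 CPM in AGY1613, 64.6, 48.3, 91.1 and 78.9 CPM in AGY1614, and 4.14, 5.28, 32.3 and 37.8 CPM in AGY1611, against 41.2 to 61.3 CPM at generation 0. AGY1611 was the strain whose 4 cultures all lay below every generation 0 library, with 7 and 11 counts left in A and B. In batch 2 the values were 82.2, 26.5 and 41.4 CPM in AGY1613, 67.4, 144 and 227 CPM in AGY1859, 32.3, 14.0 and 162 CPM in AGY1860, 68.5, 32.9 and 27.4 CPM in AGY1862, 49.3, 60.5 and 50.6 CPM in AGY1863, and 19.2, 2.61 and 36.5 CPM in AGY1611, against 35.9 to 54.2 CPM at generation 0. Cultures of 1 strain thus differed by over 10-fold in AGY1860 and AGY1611. The fitted log2 change of AGY1611 was -1.37 ± 0.44 (SE) in batch 1, the 1 call for UBP9, which was lost when only the libraries compared were fitted, and -1.35 ± 0.68 in batch 2. The other 8 fitted changes ran from -0.13 ± 0.66 (AGY1862) to 1.63 ± 0.67 (AGY1859), and UBP9 was higher in 8 of 16 cultures of batch 1 and 9 of 18 of batch 2.

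Set side by side in the same cultures, the signed log2 change of UBP13 was higher than that of UBP9 in 15 of 16 cultures of batch 1 and 16 of 18 of batch 2, by a median of 0.70 and 0.99. In the 4 AGY1611 cultures of batch 1 the fall of UBP9 was larger in size than the change of UBP13. The difference (UBP13 minus UBP9) averaged 1.09 ± 0.77 in AGY1612, 1.15 ± 0.63 in AGY1613, 0.38 ± 0.53 in AGY1614 and 2.15 ± 1.89 in AGY1611 (SD, n = 4 each). In batch 2 it averaged 1.17 ± 0.83 in AGY1613, 0.60 ± 0.82 in AGY1859, 1.45 ± 1.48 in AGY1860, 1.08 ± 1.01 in AGY1862, 0.70 ± 0.18 in AGY1863 and 2.39 ± 1.83 in AGY1611 (SD, n = 3 each). The spread between cultures was as large as the mean difference or larger in AGY1614, AGY1859 and AGY1860, and AGY1863 was the tightest. The change of UBP9 was the higher in AGY1614 culture D, AGY1859 culture 3 and AGY1860 culture 3, where the differences were -0.18, -0.34 and -0.26. With a pseudocount of 0.5, or with library size alone as the scaling, 15 of the 18 cultures of batch 2 had the higher change in UBP13. The pair was chosen with these values in view, so they carry no test. Over the 18 cultures of batch 2 the changes of both genes had a Pearson r of 0.57 (Spearman rho 0.53), and 0.57 without the 2 cultures farthest from the median of UBP13. Those cultures share strains and a starting pool.

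**Figure D2:**
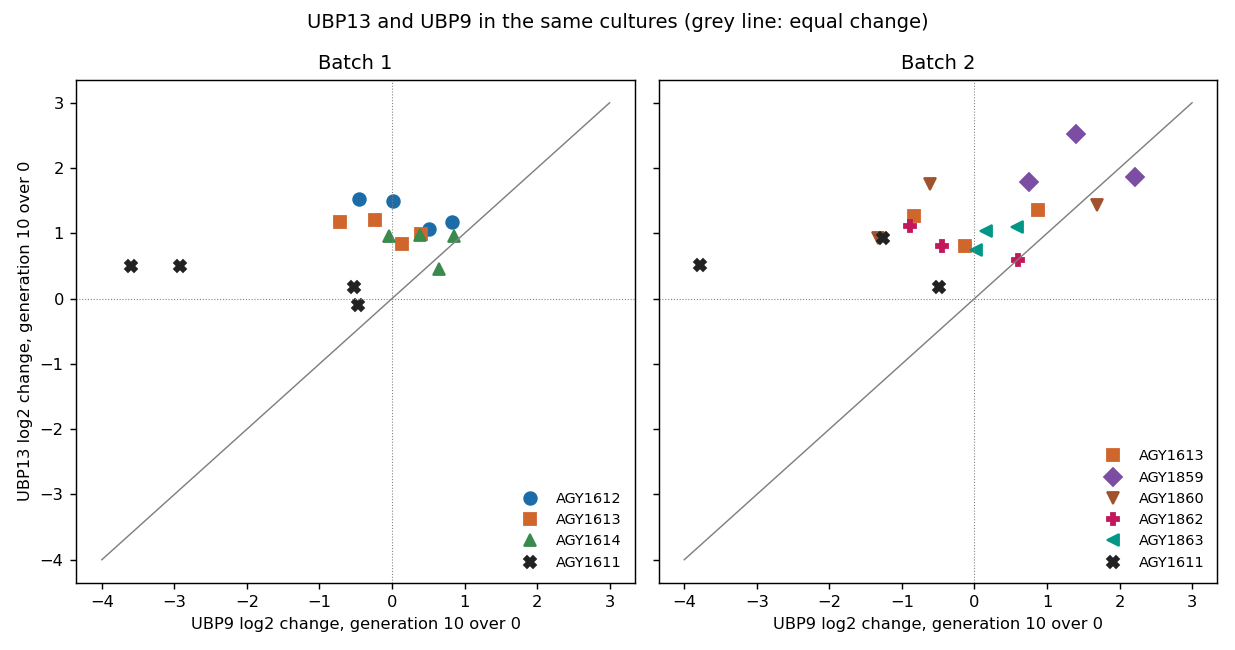
Each point is 1 culture, with the log2 change of UBP9 from generation 0 to 10 on the horizontal axis and that of UBP13 on the vertical axis, batch 1 left and batch 2 right, a symbol per strain. Points above the grey line of equal change number 15 of 16 and 16 of 18, and the AGY1611 cultures reach farthest to the left.

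The time courses of batch 2 show UBP13 climbing between every pair of time points. UBP13 had 367, 359 and 349 CPM at generation 0, 867, 668 and 782 CPM at generation 5 and 1242, 685 and 945 CPM at generation 10 in the 3 cultures of AGY1860. In AGY1613 it had 342, 328 and 338 CPM, then 572, 562 and 443 CPM, then 877, 791 and 595 CPM. In AGY1611 it had 335, 337 and 335 CPM, then 462, 367 and 364 CPM, then 639, 483 and 379 CPM. All 9 cultures were higher at generation 5 than at generation 0 and higher again at generation 10. AGY1861, sampled to generation 5, had 1042, 964 and 1029.5 CPM there, against 349, 345 and 329 CPM at generation 0, more than any AGY1860 library of that time. The fitted log2 changes at generation 5 were 1.57 ± 0.20 (SE) in AGY1861, 1.10 ± 0.20 in AGY1860, 0.64 ± 0.20 in AGY1613 and 0.25 ± 0.20 in AGY1611. With library size alone as the scaling the value of AGY1861 was 0.68. That of AGY1860 was 1.01 at its lowest under the 7 other settings, so the order of these strains depends on the scaling. UBP13 was called higher in AGY1861 and AGY1860, and these were the only 2 calls of any member among 28 tests at generation 5. All names were called at 2.58% in AGY1861, 7.32% in AGY1860, 0% in AGY1613 and 0% in AGY1611.

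**Figure D3:**
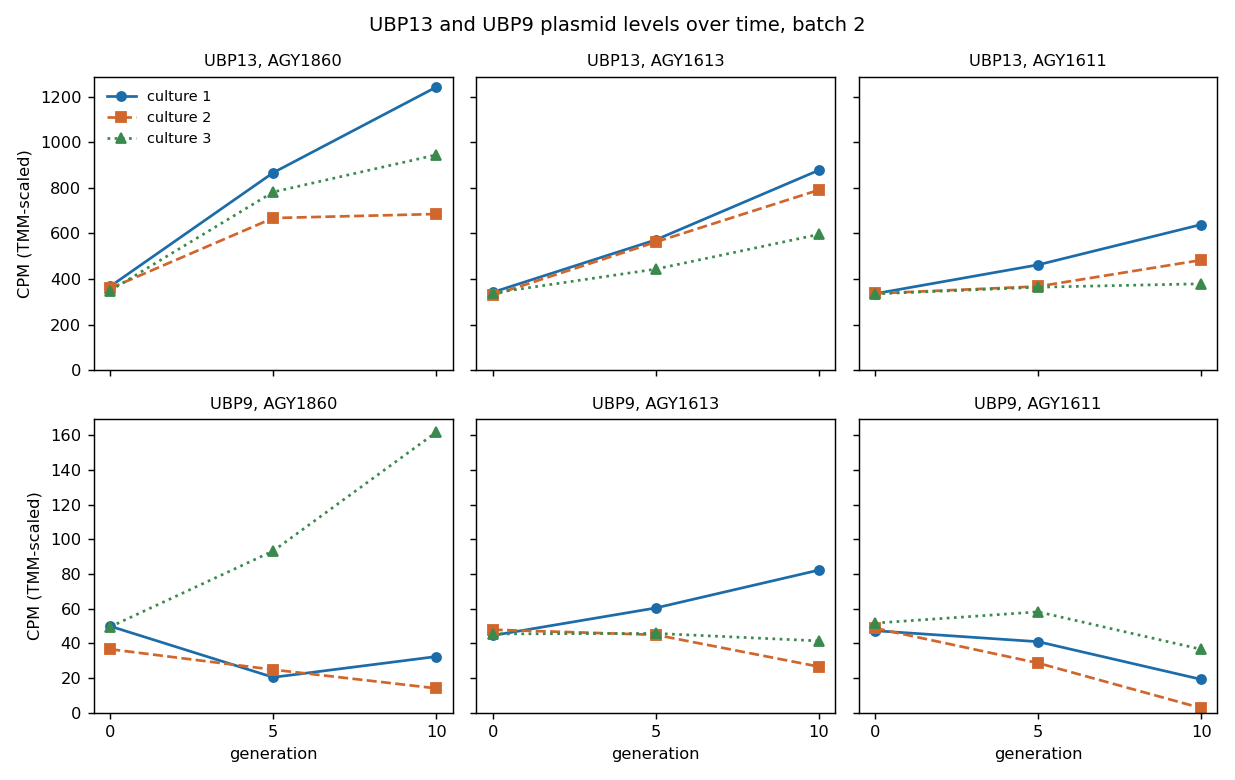
CPM (vertical axis, from 0) at generations 0, 5 and 10 (horizontal axis) for UBP13 (top) and UBP9 (bottom) in AGY1860, AGY1613 and AGY1611, 1 line per culture. The UBP13 lines rise in all 9 cultures, while UBP9 goes up in AGY1860 culture 3 and AGY1613 culture 1 and ends below its start in the other 7.

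UBP9 at generation 5 ran from 20.4 to 99.4 CPM over 12 cultures, against 35.9 to 51.7 CPM in their generation 0 libraries. The highest values were those of AGY1861 cultures 1 and 3 (99.4 and 96.1 CPM) and AGY1860 culture 3 (93.3 CPM). Culture 2 of AGY1861 had 65.7 CPM, so all cultures of that strain lay above this generation 0 range on the TMM scale. Library size alone lowered the fitted UBP13 change of AGY1861 at generation 5 from 1.57 to 0.68. Of all names, 117 were called higher and 1 lower in that comparison. Levels of UBP9 with library size alone are not given here, so its place above the range may depend on the scaling. The change of UBP13 was the higher in 11 of 12 cultures by generation 5, with a median difference of 0.65 on the log2 scale. Whether the log2 change of the second 5 generations equalled that of the first (their difference is called the departure) was tested in AGY1860, AGY1613 and AGY1611. None of the 21 member tests was called by edgeR, 2 had an unadjusted p under 0.05, and DESeq2 called 0. The lowest unadjusted p was that of UBP13 in AGY1860, where the departure was -0.79 ± 0.34 (SE, adjusted p = 1), beside a median of -0.13 over all names. Over all names the share called was 0% in AGY1860, 0% in AGY1613 and 0.0655% in AGY1611.

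UBP6 plasmids (YFR010W, chromosome VI), which carry the gene of the proteasome-bound protease, lost share. In batch 1, UBP6 had 164 to 200.0 CPM at generation 10 in AGY1612, 254 to 395 CPM in AGY1613, 109.9 to 176 CPM in AGY1614 and 206 to 364 CPM in AGY1611, against 417 to 545 CPM at generation 0. No library of generation 10 reached the generation 0 range, and 16 of 16 cultures were lower. In batch 2 it had 177, 180.5 and 206 CPM in AGY1859, 248, 212 and 211 CPM in AGY1860, 209, 213 and 278 CPM in AGY1863 and 237, 252 and 196 CPM in AGY1611, against 399 to 493 CPM over all 21 libraries of generation 0. AGY1613 (439.5, 444 and 264 CPM) and AGY1862 (409, 633 and 396 CPM) overlapped with generation 0. The fitted log2 changes were -1.41 ± 0.16 (SE) in AGY1612, -0.52 ± 0.15 in AGY1613, -1.81 ± 0.16 in AGY1614 and -0.73 ± 0.15 in AGY1611 in batch 1, all called. In batch 2 AGY1859 (-1.23 ± 0.20), AGY1860 (-0.94 ± 0.20), AGY1863 (-0.97 ± 0.20) and AGY1611 (-0.86 ± 0.20) were called, and AGY1613 (-0.13 ± 0.20) and AGY1862 (0.16 ± 0.20) were not. At generation 5 none of the 4 strains was called, with fitted changes between -0.33 ± 0.20 in AGY1860 and 0.02 ± 0.20 in AGY1613.

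UBP3 plasmids (YER151C, chromosome V) gained share most in AGY1611, the strain in which UBP13 gained least. In batch 1, UBP3 had 227 to 266 CPM at generation 10 in AGY1612, 182 to 298 CPM in AGY1613, 224 to 279 CPM in AGY1614 and 475 to 574 CPM in AGY1611, against 169.7 to 203 CPM at generation 0. The AGY1611 cultures stood apart from the other 12. In batch 2, AGY1611 had 312, 506 and 647 CPM, against 181, 170.1 and 186 CPM at generation 0, while AGY1859 had 84.0, 251 and 124 CPM, against 172, 192 and 171 CPM. The remaining strains had 127 to 426 CPM. The fitted log2 changes of batch 1 were 0.47 ± 0.13 (SE) in AGY1612, 0.38 ± 0.13 in AGY1613, 0.49 ± 0.13 in AGY1614 and 1.48 ± 0.13 in AGY1611, all called higher. With library size alone as the scaling, the value of AGY1614 was -0.04 and was not called, and the call of AGY1613 was lost with the replicate block, with library size alone, in a fit of only the libraries compared and without its generation 10 library of culture D. In batch 2 AGY1611 was called (1.45 ± 0.29), and the other 5 ran from -0.22 ± 0.29 in AGY1859 to 0.74 ± 0.29 in AGY1613. Over the 18 cultures of batch 2 the changes of UBP13 and UBP3 had a Pearson r of -0.52 (Spearman rho -0.49), and -0.55 without the 2 cultures farthest from the median of UBP13. These cultures share strains and a starting pool. Other member pairs had values of like size, such as -0.55 for UBP9 with UBP12 and -0.44 for UBP3 with UBP9.

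UBP8 (YMR223W, chromosome XIII), the SAGA member, moved in different directions in cultures of 1 strain. In AGY1613 of batch 1 it had 219 and 184 CPM in A and B but 551 and 512 CPM in C and D at generation 10, against 208 to 235 CPM at generation 0, and batch 2 gave 325, 176 and 578 CPM. AGY1862 culture 2 reached 1057 CPM while cultures 1 and 3 had 145 and 222 CPM. UBP8 was called higher in AGY1613 (0.72 ± 0.23) and AGY1614 (0.78 ± 0.23) of batch 1 and in 0 of 6 strains of batch 2, where the fitted changes ran from -0.14 ± 0.40 in AGY1859 to 1.09 ± 0.40 in AGY1862. The AGY1613 call was lost with the replicate block, with library size alone, in a fit of only the libraries compared and without culture C or D at generation 10. The AGY1614 value was 0.24 and not called with library size alone.

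UBP12 (YJL197W, chromosome X) differed widely between cultures, with an SD of the log2 change of 1.95 over 16 cultures of batch 1 and 2.66 over 18 of batch 2, against 0.45 and 0.57 for UBP13. At generation 10 of batch 1 it had 5.32 to 13.4 CPM in AGY1612, 0.729 to 4.24 CPM in AGY1613, 5.26 to 13.1 CPM in AGY1614 and 162, 205, 31.9 and 51.4 CPM in AGY1611, against 20.3 to 30.5 CPM at generation 0. AGY1611 was above its own generation 0 libraries in all 4 cultures, and the other 3 strains were below in all 12. The fitted log2 changes were -1.42 ± 0.46 (SE), -3.36 ± 0.52, -1.56 ± 0.49 and 2.20 ± 0.45 in that order of strains, all called. In batch 2 no strain was called. AGY1860 had 0, 138 and 0 CPM in its 3 cultures, AGY1862 had 0.958, 84.0 and 0 CPM and AGY1859 had 0, 10.3 and 0 CPM, against 13.6 to 31.4 CPM in the 21 libraries of generation 0. AGY1611 had 23.7, 200.3 and 60.0 CPM, AGY1613 had 50.3, 15.0 and 2.22 CPM and AGY1863 had 0, 3.12 and 13.4 CPM. The AGY1860 split was already present at generation 5, with 1.07, 154 and 2.31 CPM.

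UBP1 (YDL122W, chromosome IV) started with few counts, and none were left at generation 10 in 6 of 16 cultures of batch 1 and 12 of 18 of batch 2. In AGY1859, AGY1862 and AGY1863 of batch 2 all 3 cultures had 0 counts at generation 10. Against a floor of 3 counts per library, UBP1 was at least 2.73-fold lower at generation 10 in AGY1859, at least 3.27-fold lower in AGY1862 and at least 2.85-fold lower in AGY1863. In AGY1611 of batch 1 there was 1 count at generation 10 and 162 counts at generation 0 over 4 libraries each, 56.4-fold lower after scaling for library totals (95% exact counting interval 9.98 to 2240.2). AGY1613 of batch 1 had 14.7 and 18.4 CPM in A and B and 0 CPM in C and D. AGY1860 culture 1 went the other way, with 11.9, 63.2 and 50.7 CPM at generations 0, 5 and 10. UBP1 was called lower in AGY1611 of batch 1 and in AGY1859, AGY1862 and AGY1863, and the fitted changes there depend on the prior count. The call of AGY1859 was lost when any of its 3 generation 10 libraries was left out, and that of AGY1863 without its replicate 2 or 3.

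Over the 7 tested members, 19 of 28 changes at generation 10 of batch 1 were called, 10 higher and 9 lower. All names were called at 43.1% in AGY1612, 40.8% in AGY1613, 53.1% in AGY1614 and 47.8% in AGY1611. In batch 2, 14 of 42 were called, 7 higher and 7 lower. All names were called there at 11.4% in AGY1613, 14.5% in AGY1859, 21.0% in AGY1860, 18.2% in AGY1862, 17.5% in AGY1863 and 18.9% in AGY1611. The members were chosen with these changes in view, so nothing is read from their shares. When each culture pair (A with B, C with D) was summed, 7 of the 28 changes of batch 1 were called, among them UBP13 in AGY1612, AGY1613 and AGY1614, UBP6 in AGY1612 and AGY1614, UBP3 in AGY1611 and UBP12 in AGY1613. How many of all names that summed fit called is not given here.

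Differences between strains ask whether the barcode of the same extra gene changed by a different amount in another strain. These tests are built from the same changes that were in view when the members were chosen, so their p-values, adjusted over all names, are no independent evidence, and nothing is read from the members' shares beside those of all names. A joint test of equal generation 10 change in the 4 strains of batch 1 called 6 of 7 members, all but UBP8, against 48.1% of all names. The adjusted p was 3.98e-06 for UBP12, 3.32e-05 for UBP3, 7.51e-05 for UBP6, 0.00031 for UBP13, 0.00507 for UBP1 and 0.0481 for UBP9 (edgeR). The UBP1 and UBP9 calls were lost with the replicate block. The UBP9 call was also lost with no filter and with library size alone, and it was made in 8 of the 32 fits that each left out 1 library. With each culture pair summed, 0 of 7 members were called, with adjusted p from 0.0816 for UBP12 to 0.646 for UBP9 among those 6. How many of all names that summed fit called is not given here. In batch 2 the joint test over 6 strains called 4 of 7 members, against 6.22% of all names. UBP6 (adjusted p = 0.00261) and UBP13 (adjusted p = 0.00347) were called under all 7 other settings and in all 51 fits that left out a library. UBP1 (adjusted p = 0.0401) and UBP3 (adjusted p = 0.0499) lay near the threshold. UBP1 was called in 32 of those 51 fits and lost the call with the replicate block (3 of 7 members called), and UBP3 was called in 18. At generation 5, 1 of 7 members was called, UBP13 (edgeR adjusted p = 0.0129), against 1.53% of all names. With library size alone as the scaling that p was 0.211.

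The fitted gain of UBP13 was smallest in AGY1611 in both batches, which do not check each other in that strain. Replicate 1 of AGY1611 in batch 2, outside the related culture sets, had a log2 change of 0.93. That was above AGY1613 culture 3, AGY1862 cultures 1 and 2 and AGY1863 culture 1, and below the remaining cultures of the other batch 2 strains. In batch 1 the log2 difference in change from AGY1611 was 1.04 ± 0.18 (SE) in AGY1612 (edgeR adjusted p = 0.000156), 0.77 ± 0.18 in AGY1613 (adjusted p = 0.00359) and 0.55 ± 0.18 in AGY1614 (adjusted p = 0.023). All 12 cultures of those strains but 1 had a larger change than all 4 AGY1611 cultures, the exception being AGY1614 culture D. The AGY1614 difference was not called without the AGY1611 generation 10 library of culture C (adjusted p = 0.0561), and with library size alone it was 0.26 and not called. In batch 2 the difference was 1.53 ± 0.28 in AGY1859 (edgeR adjusted p = 0.000596). It was 0.59 ± 0.28 in AGY1613, 0.84 ± 0.28 in AGY1860, 0.29 ± 0.28 in AGY1862 and 0.40 ± 0.28 in AGY1863, and these 4 were not called.

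UBP3 ran opposite to UBP13 in the differences from AGY1611, which all subtract the AGY1611 libraries of the batch. Its log2 difference in change from AGY1611 was -1.01 ± 0.18 (SE) in AGY1612 (edgeR adjusted p = 0.000176), -1.10 ± 0.18 in AGY1613 (adjusted p = 8.16e-05) and -0.99 ± 0.18 in AGY1614 (adjusted p = 0.000144) of batch 1. In batch 2 the difference was -1.66 ± 0.41 in AGY1859 (edgeR adjusted p = 0.0208) and -0.71 ± 0.41 to -1.45 ± 0.41 in the other 4 strains, which were not called. The AGY1859 call was lost in 4 of the 51 fits that left out a library, those without generation 0 replicate 1 or 2 or generation 10 replicate 3 of AGY1611 or generation 0 replicate 2 of AGY1859, where the adjusted p was at most 0.065. Between the other strains of batch 1, UBP3 differed by -0.10 (AGY1613 minus AGY1612), 0.02 (AGY1614 minus AGY1612) and 0.11 (AGY1614 minus AGY1613), and none of these was called.

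UBP6 fell further in AGY1614 than in AGY1613, with a log2 difference of -1.29 ± 0.22 (SE, edgeR adjusted p = 8.23e-05), and than in AGY1611, with -1.08 ± 0.22 (adjusted p = 0.000467). It differed by 0.88 ± 0.22 between AGY1613 and AGY1612 (adjusted p = 0.00429) and by -0.68 ± 0.22 between AGY1612 and AGY1611 (adjusted p = 0.022). The last of these was lost under 5 of 8 other settings, the replicate block among them, and without the AGY1611 generation 10 library of culture A (adjusted p = 0.0548). UBP9 had a higher change in AGY1612, by 1.66 ± 0.61 (adjusted p = 0.0473), and in AGY1614, by 1.87 ± 0.62 (adjusted p = 0.0225), than in AGY1611. Both calls were lost when only the libraries compared were fitted. The first was also lost with the replicate block and was called in 10 of 32 fits without 1 library, and the second was lost with library size alone. UBP12 differed from AGY1611 by -3.63 ± 0.64 in AGY1612, -5.56 ± 0.69 in AGY1613 and -3.76 ± 0.67 in AGY1614, and by -1.93 ± 0.68 between AGY1613 and AGY1612 (edgeR adjusted p = 0.000175, 2.07e-06, 9.98e-05 and 0.0442). The last of these was lost with the replicate block and was called in 11 of 32 fits without 1 library. UBP1 was called in AGY1613 and AGY1614 against AGY1611, in which 1 count was left, and the first was lost with the replicate block. Over all names the median difference from AGY1611 in batch 1 was -0.21 in AGY1612, -0.07 in AGY1613 and -0.12 in AGY1614.

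**Figure D4:**
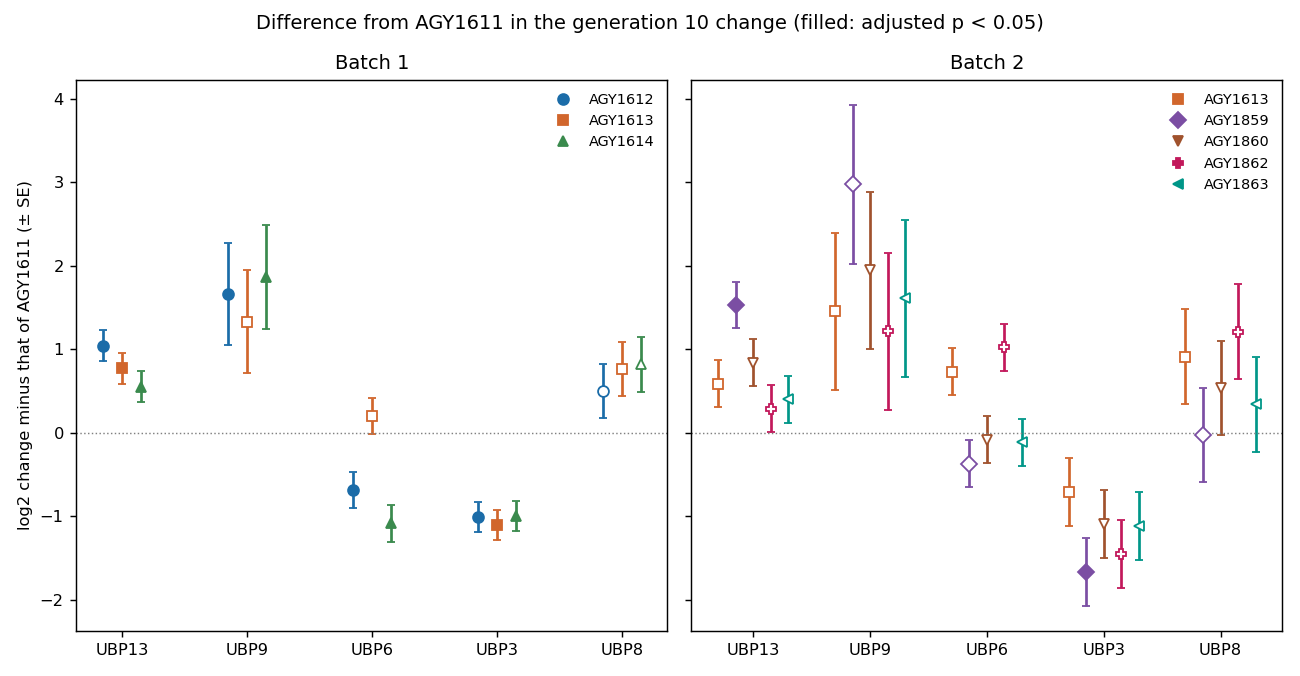
Difference in the fitted log2 change from generation 0 to 10 between each strain and AGY1611 (vertical axis, ± SE) for 5 members (horizontal axis), batch 1 left and batch 2 right; filled symbols have an edgeR adjusted p under 0.05. UBP13 differences are all above 0 and UBP3 differences all below 0, with 3 of 3 called in batch 1 and 1 of 5 in batch 2 for each gene.

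In all, 18 of 42 member tests in the 6 strain pairs of batch 1 were called, 8 higher and 10 lower. All names were called at 23.7% for AGY1612 minus AGY1611, 20.0% for AGY1613 minus AGY1611, 30.0% for AGY1614 minus AGY1611, 19.0% for AGY1613 minus AGY1612, 12.5% for AGY1614 minus AGY1612 and 26.9% for AGY1614 minus AGY1613. With each culture pair summed, 0 of the 42 were called. The share of all names called with the pairs summed is not given here, so nothing about the members is read from that count. In batch 2, 2 of 35 were called, against 0.371% of all names for AGY1613, 1.73% for AGY1859, 0.349% for AGY1860, 0.240% for AGY1862 and 0.393% for AGY1863, each minus AGY1611. Fitting only the libraries compared gave 0 of 35 calls, and DESeq2 gave 5 of 35. The comparisons of a batch share the AGY1611 libraries.

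Single cultures show how far the members followed the sets of related cultures. UBP9 in AGY1611 had 4.14, 5.28 and 2.61 CPM at generation 10 in A, B and replicate 2, but 32.3, 37.8 and 36.5 CPM in C, D and replicate 3. UBP12 in AGY1611 had 162, 205 and 200.3 CPM in A, B and replicate 2, and 31.9, 51.4 and 60.0 CPM in C, D and replicate 3. For both genes in AGY1611 the values of a set lay closer to each other than to those of the other set. UBP12 in AGY1613 had 2.18 and 4.24 CPM in A and B but 15.0 CPM in replicate 2. Over 7 members and 4 strains of batch 1, the gap between the log2 changes of A and B or C and D had a median of 0.23, and the gap between the means of the sets a median of 0.51 and a maximum of 4.27 (UBP1 in AGY1613). UBP13 had between-set gaps of 0.26 to 0.46, with A and B the higher set in all 4 strains.

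**Figure D5:**
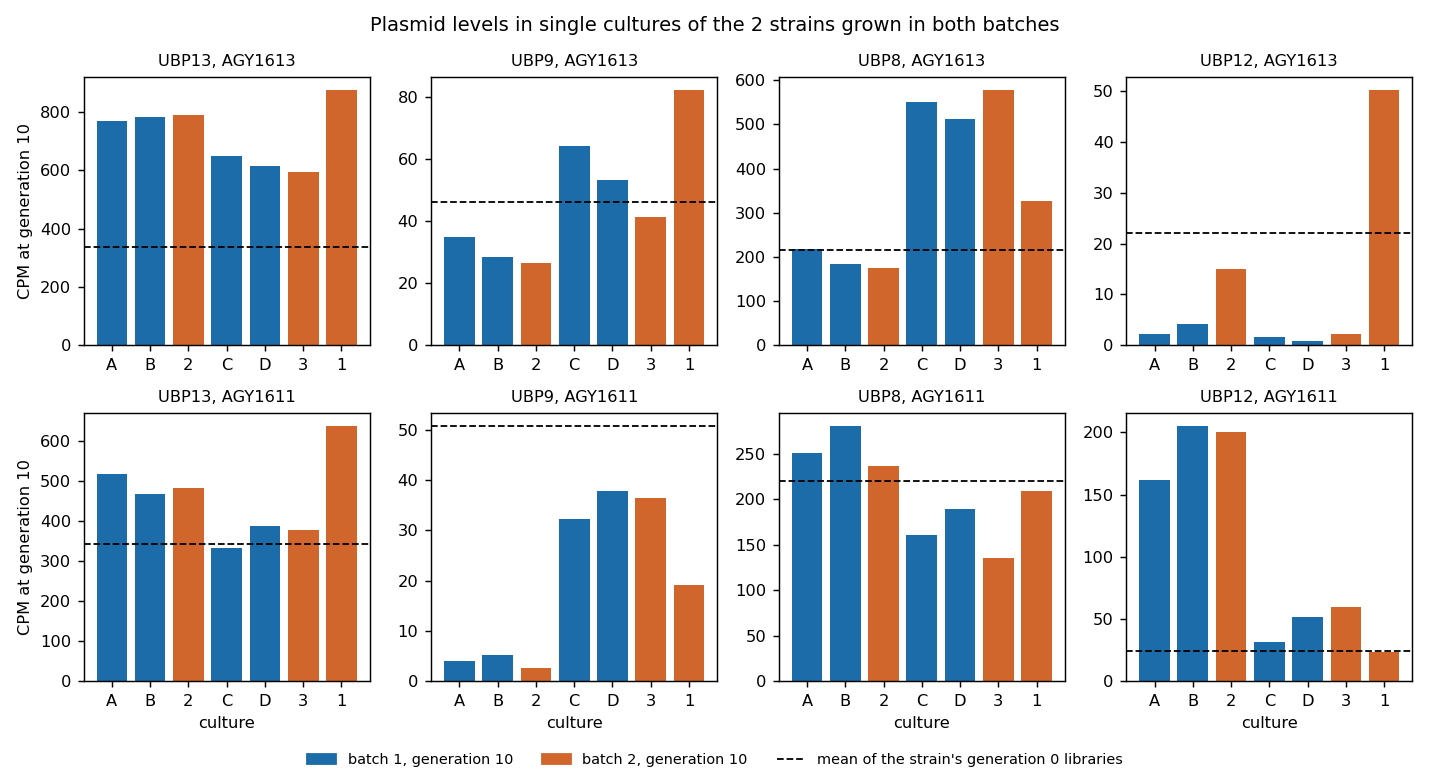
Bars give CPM at generation 10 (vertical axis, from 0) in single cultures of AGY1613 (top) and AGY1611 (bottom) for UBP13, UBP9, UBP8 and UBP12, batch 1 blue and batch 2 orange, and the dashed line is the mean of the strain's 7 generation 0 libraries. Culture 2 of batch 2 stands near A and B, and culture 3 near C and D, in both strains for UBP13 and UBP8.

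Other genes of the pathway were described from lists that were also put together with earlier results known. Of 13 other deubiquitinases, 9 were tested, and 9 of 36 changes at generation 10 were called higher and 4 lower in batch 1, 6 and 1 of 54 in batch 2. All names were called at 40.8% to 53.1% in the strains of batch 1 and 11.4% to 21.0% in those of batch 2, the background for this and the next 2 lists, from which no list is set apart here. RPN11, the metalloprotease of the proteasome lid, had the highest mean change (0.76 over 4 strains and 0.63 over 6), and DOA4, which recovers ubiquitin at endosomes, the lowest (-2.54 and -1.84). Of 8 partners of the members, 7 were tested, with 6 of 28 called higher and 2 lower in batch 1 and 0 and 1 of 42 in batch 2. Among those with at least 50 counts at generation 0, SGF11, which holds Ubp8 in SAGA, was highest (0.85 and 0.51). RSP5, the ubiquitin ligase that Ubp2 opposes, was lowest among them (-0.95 and -1.85). DUF1, with a mean of 31 counts at generation 0 of batch 1, was lower there (-1.70, called lower in 2 of 4 strains). Of the genes for ubiquitin and its conjugation, 15 of 56 entry tests were called higher and 15 lower in batch 1 and 7 and 6 of 90 in batch 2. The second of 2 entries for UBC13, a conjugating enzyme, was lowest (-1.48 and -1.96), while RAD6, another, was highest in batch 1 (1.48) and UBA1, the activating enzyme, in batch 2 (0.82). Some of these means vary widely between strains. RAD6 ran from 0.19 to 4.58 in batch 1 and was called in 1 of 4 strains. DOA4 ran from -8.36 to 0.24 in batch 2 and was called in 1 of 6. RSP5 was called in 0 of 4 strains of batch 1 and 1 of 6 of batch 2.

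The names whose changes over the 18 generation 10 cultures of batch 2 were most like those of UBP13, among 4323 names with at least 50 counts at generation 0, were URA5 (Pearson r = 0.81), HAL5 (0.80), CLN1 (0.78), NDE1 (0.76) and COA2 (0.75). For UBP9 they were an entry of ARO8 (0.81), PDA1 (0.79), TDA9 (0.78), MGA1 (0.77) and MUD1 (0.76). The 2 lists share no name. They are the highest of 4323 values over cultures that share strains, and are given as a measure of likeness alone.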

How the data were processed

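Plasmid barcodes were sequenced from 83 libraries. Per gene entry and library, the authors deposited unnormalized counts, 1 table for each batch. The step from reads to counts is not given in the sources used here. Every count column was mapped to a sample by its label, with 0 left over. Gene names, chromosomes and gene lengths came from the R64 gene table, and no coordinates were used. The members and gene lists were chosen with earlier results of these data known.

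The empty vector was left out. Each batch was fitted as a whole in edgeR 4.0.16 (limma 3.58.1, R 4.3.3): TMM scaling, a filterByExpr minimum of 10, a coefficient for every strain at every generation, quasi-likelihood F tests, Benjamini-Hochberg adjustment over all names of a comparison, called under 0.05. SE is the log2 change over the root of F. Changes per culture are log2 ratios of CPM plus 1. The test was checked on simulated counts, drawn independently for each library. Changed genes were picked above a generation 0 level that UBP1 does not reach. Of 100 genes changed 4-fold (2 on the log2 scale), 94% were recovered for AGY1611 of batch 1 and 85% for AGY1859 of batch 2. Of 100 changed 2-fold, 52% and 32% were recovered, with 12 and 7 false calls in all. Cultures that move together, as A with B and C with D did, are not covered by this check.

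All 10 members are named, UBP13 and UBP9 in every library, of each other list the genes with the most negative and most positive mean change with at least 50 counts at generation 0, and the 5 names most like UBP13 and UBP9. Alternatives were DESeq2 1.42.0, its size factors in edgeR, library size alone, no filter, a mean of at least 50 counts at generation 0, a replicate block, the libraries of the comparison alone, culture pairs (A with B, C with D) summed, and leaving out each library. Deviations of libraries that share a replicate label correlated over 0.1 in every pair in 4 of 14 groups (AGY1859, AGY1860 at both times, AGY1863), where the numbers pair the samples. The remaining groups, all of batch 1 among them, did not meet this, and there the pairing of cultures by label was assumed. No 2 replicate libraries agreed within sampling noise (99 pairs, lowest chi-square per degree of freedom 2.24). Depth per library is given with the results.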

Additional observations from a re-analysis of the deposited data

Results flagged for a closer look

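A culture stood far from the other 3 of its strain in 2 of 28 groups of 4 tested: UBP13 in AGY1614 culture D, at a log2 change of 0.46, and UBP3 in AGY1614 culture B, at 0.67. Chance gives about 1 in 20 for 4 independent values, which these are not, since A moved with B and C with D.

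The strain differences are built from the changes in view when the members were chosen. Those in the generation 10 change that passed edgeR's test (adjusted p under 0.05) were, in batch 1, UBP13 in AGY1612 (1.04), AGY1613 (0.77) and AGY1614 (0.55), UBP3 in AGY1612 (-1.01), AGY1613 (-1.10) and AGY1614 (-0.99), UBP6 in AGY1612 (-0.68) and AGY1614 (-1.08), UBP9 in AGY1612 (1.66) and AGY1614 (1.87), UBP12 in AGY1612 (-3.63), AGY1613 (-5.56) and AGY1614 (-3.76), and UBP1 in AGY1613 (6.11) and AGY1614 (6.73), each minus AGY1611. The UBP1 values rest on 1 count in AGY1611 and depend on the prior count. Between other strains, UBP6 differed by 0.88 for AGY1613 minus AGY1612 and by -1.29 for AGY1614 minus AGY1613, and UBP12 by -1.93 for AGY1613 minus AGY1612. In batch 2 the differences were UBP13 in AGY1859 (1.53) and UBP3 in AGY1859 (-1.66), each minus AGY1611. Cultures A and B, and C and D, moved together, and the part of this in the batch 1 differences was not tested beyond summing them, after which none was called. The share of all names called after summing is not given, so whether that loss is particular to the members is not known.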

How the results depend on the processing

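Counts of member calls within 1.5 times the reported ones are not listed. With each culture pair (A with B, C with D) summed, batch 1 gave 7 calls at generation 10 (reported 19), 0 in the joint test (6) and 0 in strain pairs (18). Each strain then has 2 samples, and the share of all names called there is not given. In the fit to the libraries of a comparison alone, batch 2 gave 6 calls at generation 5 (2), 0 in strain pairs (2) and 2 in the joint test at generation 10 (4). A mean of at least 50 counts at generation 0 also gave 2 in that joint test, in which UBP1 is no longer tested, and DESeq2 gave 5 in strain pairs of batch 2. The cause was not tested for the others. With the replicate block, batch 1 gave 17 calls at generation 10, 4 in the joint test and 14 in pairs, and batch 2 gave 14, 3 and 2, with 2 at generation 5. Leaving out each library in turn gave 17 to 21, 5 to 7 and 16 to 21 in batch 1. In batch 2 it gave 13 to 16 at generation 10, 2 to 4 in the joint test, 1 to 4 in pairs, 2 in every fit at generation 5, 1 in the joint test there and 0 for departure. Among the changes and strain differences that were called, 1 value turned sign: UBP3 in AGY1614 of batch 1, at -0.038 with library size alone. Values not called were not checked for a turn of sign. Low counts limit UBP1, UBP12 and UBP9 most.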
